A study of Mus musculus with 22 samples.

Results

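At 8 weeks of age, 4 of the 6 livers from male Slc10a1-/- mice (here KO) had almost none of the urinary protein transcript Mup20, and these 4 livers are described here against the 4 wild-type (WT) livers of the same age, 8 libraries of the 22 in the series. The KO livers were picked by a measured value. Mup20 stood at 4.82, 4.98, 70.5 and 4.6 CPM (counts per 1000000 gene counts) in KO libraries 1, 2, 5 and 6, against 2187, 2387, 1296 and 1042 CPM in WT libraries 1 to 4. KO library 5, at 70.5 CPM, was the nearest to the limit on the inside, and KO library 3, at 3570 CPM, the nearest on the outside, with KO library 4 at 3681 CPM. KO libraries 3 and 4 are called the Mup20-high KO pair below. Because the choice rests on these libraries' own expression, the contrast of Mup20-low KO with WT is given as a description with no test, and Mup genes are not counted in it.

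The series profiled poly(A) RNA from frozen livers of male C57BL/6 mice, KO and WT, at 4 weeks (3 and 3 livers), 8 weeks (6 and 4) and 20 months (3 and 3). Slc10a1 encodes NTCP, the sodium-dependent carrier by which hepatocytes take up conjugated bile acids from the blood, and the study was about sulfation of bile acids when this transporter is lacking. How the knockout allele was made, and how the mice relate by litter or cage, is not given in the sources used here, so p-values measure only the spread between these samples.

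In rodents the liver is one of the most sexually dimorphic organs. Males release growth hormone from the pituitary in pulses, females in a more even flow, and the hepatocyte reads the pattern through the growth hormone receptor, JAK2 and the transcription factor STAT5B. The male pattern sustains genes such as Mup20, Elovl3, Hsd3b5 and the Cyp4a12 genes, and represses a female set that holds Cyp2b9, Cyp2b13 and several sulfotransferases. BCL6 represses female genes in male mouse liver and CUX2 represses male genes in female mouse liver. Mup20 thus belongs to the male set, and male-biased and female-biased genes below are members of the programme by which the livers were picked.

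Depth was similar across the 8-week libraries, 18950112 to 26066897 counts in genes, and 3 counts, the limit that a count of 0 allows for counting error alone, corresponded to 0.115 to 0.158 CPM. Slc10a1 itself (chromosome 12, 80953183 to 80968705, GRCm38) had 55.5, 93.3, 49.2 and 62.2 CPM in the Mup20-low KO livers and 69.9 and 76 CPM in the Mup20-high KO pair, against 432 to 464 CPM in WT livers, so both sets of KO livers carried the reduction. All 10 libraries had the transcript profile of males: Xist, the RNA of the inactive X chromosome, was at 0.173 to 0.505 CPM in Mup20-low KO livers and 0.238 to 0.819 CPM in WT livers, and the Y-linked Ddx3y at 115 to 184 CPM and 107 to 121 CPM. Among the 4 Mup20-low KO livers, library 1 departed from WT at the most genes. The clock gene Arntl was high in libraries 1 and 2, and muscle transcripts were present in library 6, where the 9 muscle markers summed to 371 CPM against at most 2.04 CPM in WT livers. What part these features had in the results was not tested. Values below are CPM scaled by TMM factors, differences are of mean log2 CPM with a prior count of 2, Mup20-low KO minus WT, and numbers after ± are SD over 4 livers.

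A gene is called apart below when all 4 Mup20-low KO livers lay beyond all 4 WT livers and the means differed by at least 1 on the log2 scale. By this rule 487 genes were higher in Mup20-low KO livers, 3.36% of the 14488 genes measured, and 469 were lower, 3.24%, so 956 were apart in either direction (6.6%). The list counts below stand against these shares, and a few members apart are not read as a result about their list. Genes almost absent from 1 group passed the filter on low counts through the livers in which they were high. Their place among the genes measured thus depends on the groups compared. In the Mup20-high KO pair, 51 genes (0.352%) lay above and 140 (0.966%) below all 4 WT livers with such a difference. Among the 487 higher genes the high pair lay inside the WT range at 163, beyond WT on the same side at 40 and below all WT livers at 62, with the pair divided at the other 222. Among the 469 lower genes it lay inside the WT range at 97, on the same side at 48 and above all WT livers at 99, with 225 divided. The share of all measured genes with the pair at each of these places is not given here. These counts therefore describe only the genes apart. Counted one by one, genes above all WT livers by at least 1 log2 unit numbered 1697, 836, 533 and 613 in KO libraries 1, 2, 5 and 6, against 82 and 91 in KO libraries 3 and 4. Genes below numbered 2009, 802, 466 and 557, against 212 and 391. Leaving out KO library 1, which had by far the most, retained 725 of the 956 genes, and KO libraries 5 and 6 alone gave 646 of them among 790.

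Nearly the whole male-biased list was low. Of 30 male-biased liver genes, 27 were apart and lower in Mup20-low KO livers and none higher, and the list's median difference was -3.82, against -0.03 over all 14488 genes. In the Mup20-high KO pair the same median stood at 0.49. With any 1 library left out, 27 or 28 of the 30 were apart. The 3 that were not apart were Egfr, Bcl6 and Hsd17b6, whose ranges overlapped those of WT livers.

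Elovl3, an elongase of very long chain fatty acids (chromosome 19, 46131897 to 46135694), was at 0.158, 0.253, 0.0864 and 0.189 CPM in Mup20-low KO livers 1, 2, 5 and 6 and at 119 and 208 CPM in the Mup20-high KO pair, against 67.9, 53.2, 48.1 and 47.1 CPM in WT livers 1 to 4. Its signal thus lay near the counting limit in all 4 Mup20-low livers, while both Mup20-high livers exceeded every WT liver. Hsd3b5, a male-biased steroid reductase of the 3-beta-hydroxysteroid dehydrogenase family, showed the same arrangement, with 0.227 ± 0.0747 CPM in Mup20-low KO livers, 172 and 339 CPM in the high pair and 122 ± 30.9 CPM in WT livers, a difference of -8.49. Cyp4a12a, a fatty acid hydroxylase, averaged 0.48 ± 0.518 CPM against 175 ± 34.3 CPM in WT livers, and its neighbour Cyp4a12b 0.208 ± 0.212 CPM against 58.5 ± 7.43 CPM. The 2 Cyp4a12 genes are close copies, so reads may have been divided between them to an unknown degree. KO library 5, the one with the most Mup20, also had the most Cyp4a12a of the 4, at 1.25 CPM.

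Further male-biased genes, some of them of steroid and bile acid metabolism, were also lower. Cyp7b1, the oxysterol 7-alpha-hydroxylase of the alternative bile acid pathway, was at 7.85, 4.84, 7.3 and 8.42 CPM in Mup20-low KO livers and 673 and 853 CPM in the high pair, against 422, 527, 412 and 263 CPM in WT livers, a mean 57.2 times as high in WT livers. Slco1a1, an organic anion transporter of the sinusoidal membrane, averaged 30.6 ± 14.9 CPM in Mup20-low KO livers against 723 ± 116 CPM in WT livers. Selenbp2, a selenium-binding protein gene, averaged 11.5 ± 3.14 CPM against 688 ± 239 CPM, and Serpina12, a gene outside the list that encodes the adipokine vaspin, 0.462 ± 0.225 CPM against 26.8 ± 9 CPM. Serpina1e, an alpha-1 antitrypsin copy, ranged from 300 to 1086 CPM in Mup20-low KO livers against 9579 to 9984 CPM in WT livers. Cyp2d9, a testosterone 16-alpha-hydroxylase in mice, ranged from 59.4 to 114 CPM against 697 to 852 CPM. For 17 of the 27, among them Cyp7b1, Slco1a1 and Selenbp2, both livers of the high pair lay above all WT livers. At none of the 27 did both lie within or below the WT range. Among all 469 genes apart and lower, the pair lay above all WT livers at 99. The share of all measured genes with the pair above WT is not given here. The count of 17 therefore describes only genes picked as low in the other KO livers.

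**Figure D1:**
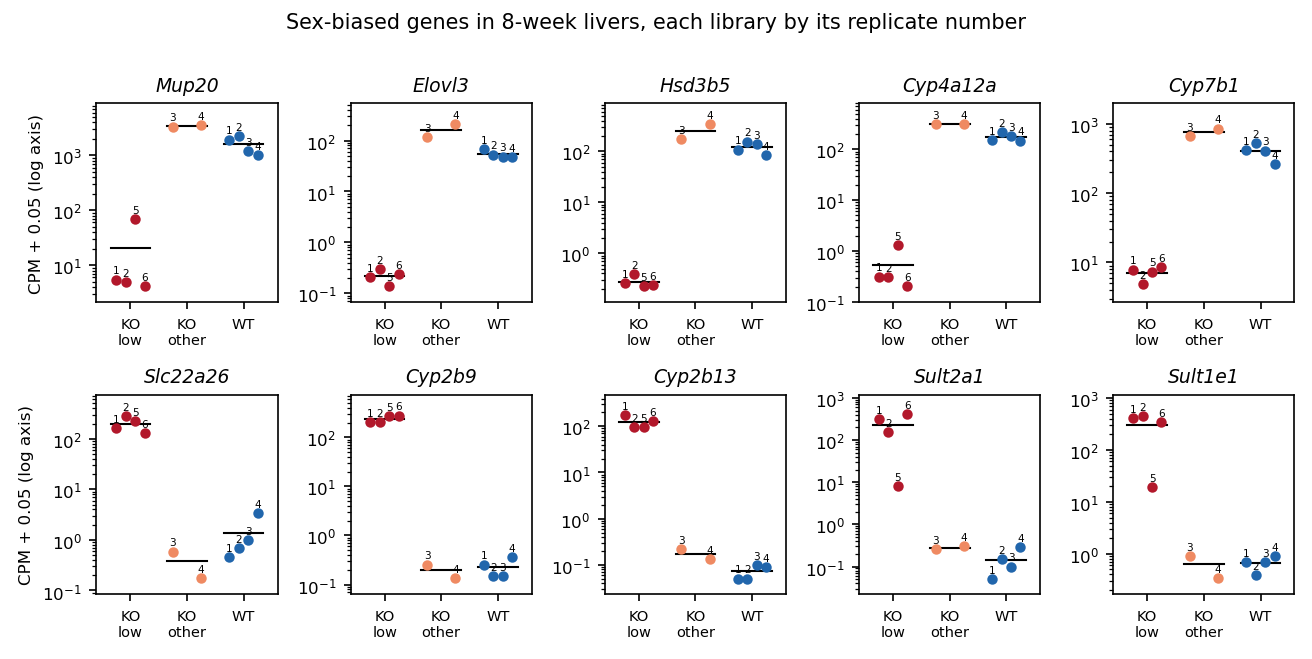
CPM plus 0.05 on a log axis for Mup20, 4 male-biased genes (upper row) and 5 female-biased genes (lower row) in the 4 Mup20-low KO livers (KO low), the Mup20-high KO pair (KO other) and the 4 WT livers at 8 weeks. Points are libraries with their replicate numbers and bars are group means. The male-biased genes lie lower in all 4 Mup20-low livers than in every other liver, and the female-biased genes higher, with KO library 5 the lowest of the 4 at Sult2a1 (7.95 CPM) and Sult1e1 (19.3 CPM).

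The female-biased list showed the opposite arrangement. Of its 30 measured genes, 24 were apart and higher in Mup20-low KO livers and none lower, with a median difference of 3.67, against -0.47 in the Mup20-high KO pair. Leaving out single libraries gave 23 to 26 of the same 30. Members such as Cyp2b13, with 2 reads in the 4 WT livers, passed the filter on low counts only through the Mup20-low KO livers. The count of 30 thus depends in part on those livers. The 6 not apart were Cyp3a44, Cyp2c69, Fmo2, Acot3, Ntrk2 and Fmo1, and 4 further members (Cyp3a16, Cyp3a41a, Cyp3a41b and A1bg) were too low to be measured. Cyp3a41a, a cytochrome P450 of female mouse liver, was at no more than 0.113 CPM in any Mup20-low KO liver.

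Cyp2b9, a cytochrome P450 of female mouse liver (chromosome 7, 26173411 to 26210661), was at 206, 201, 269 and 277 CPM, with 0.206 and 0.0839 CPM in the high pair, against 0.204, 0.0982, 0.0982 and 0.312 CPM in WT livers. The 4 Mup20-low livers lay close together and far above the Mup20-high and WT livers. The linked copy Cyp2b13 was at 177, 95, 96 and 129 CPM, with 2 reads in all over the 4 WT livers, so no fold is given, and the likeness of the Cyp2b genes leaves their division of reads uncertain. Cyp2a4, a testosterone 15-alpha-hydroxylase, averaged 235 ± 153 CPM against 3.9 ± 0.979 CPM in WT livers. Slc22a26 and Slc22a27, organic anion transporters, averaged 200 ± 68.1 CPM and 32 ± 10.4 CPM, against 1.32 ± 1.34 CPM and 0.249 ± 0.146 CPM in WT livers. Hao2, a peroxisomal hydroxyacid oxidase, averaged 20.5 ± 6.13 CPM, against 0.593 ± 1.1 CPM in WT livers, where library 1 alone had 2.25 CPM. Cyp17a1, a steroid 17-alpha-hydroxylase, ranged from 79.7 to 180 CPM against 4.96 to 19 CPM, and Hamp2, a hepcidin copy, from 47.9 to 87.2 CPM against 1.8 to 3.19 CPM.

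Promoters of sex-biased members were read for the STAT5-type motif, TTCNNNGAA, which reads the same on both strands, to show where it lies in genes that moved together. The windows were the 250 bases before the RefSeq gene start (GRCm38.p6). It was found at 8.13% of the 27025 genes with a window, at 8.61% of 337 genes apart and higher and at 9.04% of 332 genes apart and lower. Of the male-biased genes apart, 2 of 20 with a window held it (Moxd1 and Keg1), and of the female-biased genes apart, 4 of 15 (Sult3a1, Prlr, Hamp2 and Slc22a26). These shares are small counts and are given as a description. The 4 windows below are shown as examples from each list, 5′ to 3′ on the gene's strand with the motif in capitals, Moxd1 at chr10:24223267-24223516 (+), Keg1 at chr19:12695540-12695789 (+), Sult3a1 at chr10:33857472-33857721 (+) and Slc22a26 at chr19:7802668-7802917 (-).
Moxd1: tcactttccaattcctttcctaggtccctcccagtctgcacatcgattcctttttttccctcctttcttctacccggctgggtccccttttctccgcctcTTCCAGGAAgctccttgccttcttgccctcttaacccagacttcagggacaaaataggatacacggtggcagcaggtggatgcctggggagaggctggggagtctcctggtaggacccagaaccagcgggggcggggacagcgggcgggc
Keg1: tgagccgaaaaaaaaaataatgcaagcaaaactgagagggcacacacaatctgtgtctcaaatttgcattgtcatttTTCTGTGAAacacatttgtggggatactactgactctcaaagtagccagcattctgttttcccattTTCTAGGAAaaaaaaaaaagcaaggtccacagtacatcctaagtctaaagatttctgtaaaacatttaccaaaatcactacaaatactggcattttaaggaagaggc
Sult3a1: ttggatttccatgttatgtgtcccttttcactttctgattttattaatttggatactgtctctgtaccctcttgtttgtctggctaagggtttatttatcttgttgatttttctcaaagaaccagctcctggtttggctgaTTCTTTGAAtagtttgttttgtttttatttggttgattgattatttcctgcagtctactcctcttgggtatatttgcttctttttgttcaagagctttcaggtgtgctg
Slc22a26: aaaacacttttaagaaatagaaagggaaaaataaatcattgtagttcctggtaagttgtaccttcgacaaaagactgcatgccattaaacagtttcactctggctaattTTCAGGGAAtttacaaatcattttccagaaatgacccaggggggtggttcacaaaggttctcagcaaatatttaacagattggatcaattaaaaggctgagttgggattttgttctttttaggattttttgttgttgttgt
The first base of the motif lay 150 bases before the start in Moxd1, 173 and 107 in Keg1, 109 in Sult3a1 and 141 in Slc22a26. Moxd1, a monooxygenase-like protein gene, was at 0 to 0.316 CPM in Mup20-low KO livers against 3.09 to 55.9 CPM in WT livers, and Keg1, a glycine acyltransferase family member, at 3.11 to 33.6 CPM against 109 to 169 CPM. Sult3a1, an amine sulfotransferase, was at 2.68 to 28.9 CPM against at most 0.078 CPM in WT livers.

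The genes of the growth hormone pathway itself were less uniform. Of 31 measured, 4 were apart and higher and 3 lower, with a median difference of -0.12. The regulator Cux2 was at 40.8, 26.8, 52 and 29.2 CPM in Mup20-low KO livers and 0.37 and 0.42 CPM in the high pair, against 0.544, 4.76, 1.08 and 4.6 CPM in WT livers. Igfbp1, a binding protein for insulin-like growth factors that insulin represses, was at 7818, 1821, 524 and 725 CPM, with 49 and 20.5 CPM in the high pair, against 57.8, 68.3, 65.2 and 264 CPM in WT livers. Igfals and Igfbp3, which carry IGF-1 in plasma, ranged from 7.48 to 38.7 and from 8.75 to 20.2 CPM in Mup20-low KO livers, against 50.7 to 76.5 and 24.9 to 34.2 CPM in WT livers.

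Several other members were not apart. Igf1, the main hepatic product of growth hormone action, was at 315, 419, 654 and 394 CPM in Mup20-low KO livers against 668, 864, 791 and 984 CPM in WT livers, all 4 below all 4, but with a difference of -0.93 it did not reach 1. The STAT5 targets Socs2 and Cish did not separate the groups: Socs2 was at 63.7, 44.2, 87.5 and 9.66 CPM against 8.81 to 34 CPM, and Cish at 5.09 to 22.5 CPM against 5.3 to 13.1 CPM. Bcl6, the male-liver repressor of female genes, was at 7.75 to 18.6 CPM in Mup20-low KO livers against 11.5 to 43.2 CPM in WT livers. Prlr, the prolactin receptor and one of the 4 higher genes, averaged 224 ± 42.6 CPM against 103 ± 50.6 CPM, with the high pair inside the WT range. KO library 5 had the highest Igf1 and Cish of the 4, and without it 8 of the 31 genes were lower.

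Sulfotransferase genes were far higher in some cases and lower in others. Of 26 genes for sulfation, 22 were measured, of which 8 were apart and higher and 2 lower. With any 1 library left out, 8 of the same 22 were higher. Sult2a1 and Sult2a2, with 9 reads and 1 read in the 4 WT livers, passed the filter on low counts only through the Mup20-low KO livers. The count thus depends in part on those livers. The median difference was 0.27, and the other 12 genes were not apart. The higher genes were Sult2a1, Sult2a2, Sult2a4, Sult2a5, Sult2a6, Sult1e1, Sult3a1 and Sult1a1. Of these, Sult2a1, Sult2a2, Sult1e1 and Sult3a1 also stand in the female-biased list. Sult5a1, one of the lower genes, stands in the male-biased list. The sulfation counts are thus not separate from the programme by which the livers were picked. Sult2a1, whose product sulfates bile acids and hydroxysteroids (chromosome 7, 13796246 to 13837409), was at 319, 152, 7.95 and 418 CPM in Mup20-low KO livers and 0.206 and 0.252 CPM in the high pair, against 0, 0.0982, 0.0491 and 0.234 CPM in WT livers. Sult2a2, its neighbour, was at 76, 88.8, 17.7 and 93.1 CPM, with 1 read in all in the 4 WT livers. KO library 5 was the lowest of the 4 for both, and its 7.95 CPM of Sult2a1 was still above the other 8-week livers. The Sult2a genes are near-identical copies and the division of reads among them is uncertain.

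Sult1e1, the oestrogen sulfotransferase (chromosome 5, 87575969 to 87591594), was at 412, 447, 19.3 and 339 CPM in Mup20-low KO livers, with 0.864 and 0.294 CPM in the high pair, against 0.647, 0.344, 0.638 and 0.858 CPM in WT livers. Sult1a1, a phenol sulfotransferase, ranged from 515 to 681 CPM against 131 to 203 CPM in WT livers. Sult2a8, another gene of the Sult2a cluster, was lower instead, at 130, 206, 356 and 195 CPM in Mup20-low KO livers and 933 and 1243 CPM in the high pair, against 740, 881, 904 and 814 CPM in WT livers. Sult5a1, an orphan sulfotransferase, was at 0.369 to 3.63 CPM against 13.7 to 20.6 CPM. Papss2, which makes the sulfate donor PAPS, averaged 381 ± 94.1 CPM against 242 ± 25.2 CPM with overlapping livers.

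Bile acid synthesis genes were mostly not apart: 1 of 18 was higher and 2 were lower, one of them Cyp7b1. The higher gene was Cyp39a1, a 24-hydroxycholesterol 7-alpha-hydroxylase that is female-biased in mice, at 398, 239, 177 and 270 CPM in Mup20-low KO livers against 29.6 to 48.1 CPM in WT livers. The other lower gene, Scp2, a peroxisomal thiolase of side chain shortening, ranged from 971 to 1478 CPM against 3135 to 3590 CPM. Cyp7a1, the rate-limiting enzyme of the classic pathway, divided the 4 livers, with 23, 31.8, 503 and 198 CPM in Mup20-low KO livers and 403 and 391 CPM in the high pair, against 557, 999, 606 and 486 CPM in WT livers. Libraries 1 and 2 were far below WT and library 5 lay inside the WT range. Arntl was high in the same 2 libraries; its part in this was not tested. Cyp8b1, the sterol 12-alpha-hydroxylase, was at 283, 189, 130 and 49 CPM against 233 to 414 CPM and overlapped.

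In the bile acid transport list, which also holds the enzyme gene Ephx1, 4 of 19 genes were higher and 3 lower. Slco1a4, a sinusoidal organic anion transporter that is female-biased, was at 978, 529, 307 and 409 CPM in Mup20-low KO livers against 17.6, 55.9, 59.6 and 82.5 CPM in WT livers, and Slco1a1 was low as given above. Abcc4, a basolateral exporter of bile acids and their sulfates, was at 35, 13, 7.43 and 25.2 CPM against 2.75 to 5.27 CPM. Abcb1a, a multidrug exporter, and Abcg5, a subunit of the sterol exporter, were higher by 1.56 and 1.01, and Ephx1 and Abcg2 lower, with differences of -1.12 and -1.07. Abcb11, the canalicular bile salt export pump, averaged 419 ± 142 CPM against 562 ± 54.7 CPM and overlapped. In the list for bile acid signalling, with 14 genes, Nr1h4, the bile acid receptor FXR, was lower at 42.1 to 126 CPM against 138 to 186 CPM, and its target Nr0b2 (SHP) was higher at 5.48, 18.9, 6.09 and 10.6 CPM against 2.93 to 4.72 CPM. Nr1h4 was no longer apart without KO library 1, nor Nr0b2 without KO library 2. These single genes of the list stand beside 3.36% of all genes higher and 3.24% lower.

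Targets of the xenobiotic receptors CAR and PXR were more often higher. Of 24 measured, 8 were apart and higher and 1 lower, with a median difference of 0.70 and with 7 to 9 higher when single libraries were left out. Cyp2b10, the classic CAR target, was at 68.1, 38.9, 40.2 and 30.3 CPM in Mup20-low KO livers and 0.535 and 0.462 CPM in the high pair, against 0.579, 0.442, 0.147 and 0.702 CPM in WT livers. It is also female-biased in mice and stands in both lists. Cyp2c37 ranged from 311 to 610 CPM against 93.4 to 133 CPM and Cyp2c55 from 9.5 to 40.8 CPM against 2.52 to 6.48 CPM, both drug- and lipid-metabolising cytochromes P450. Akr1b7, an aldose reductase, was at 12, 10.5, 0.864 and 3.32 CPM, with 9 reads in all over the 4 WT livers. Gadd45b, a stress-inducible CAR partner, ranged from 3.11 to 75.8 CPM against 0.749 to 1.64 CPM. The lower gene was Alas1, the first enzyme of haem synthesis.

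Of 18 genes in the glucuronidation list, 6 were lower, 1 was higher and 11 were not apart. Ugt2b38, which is male-biased, was at 2.53, 1.68, 2.98 and 1.96 CPM in Mup20-low KO livers against 39.5, 25.9, 33.9 and 15.5 CPM in WT livers. Ugt3a1 averaged 13.7 ± 9.29 CPM against 71 ± 4.05 CPM, and Ugt2b1 ranged from 139 to 260 CPM against 697 to 829 CPM. Ugt2b5, Ugt2b35 and Ugt1a2 were the other lower genes, and Ugt1a5, at 70.9 to 134 CPM against 13.9 to 30.6 CPM, the higher one. The Ugt1a genes share their last exons, so their counts depend on how shared reads were assigned.

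**Figure D2:**
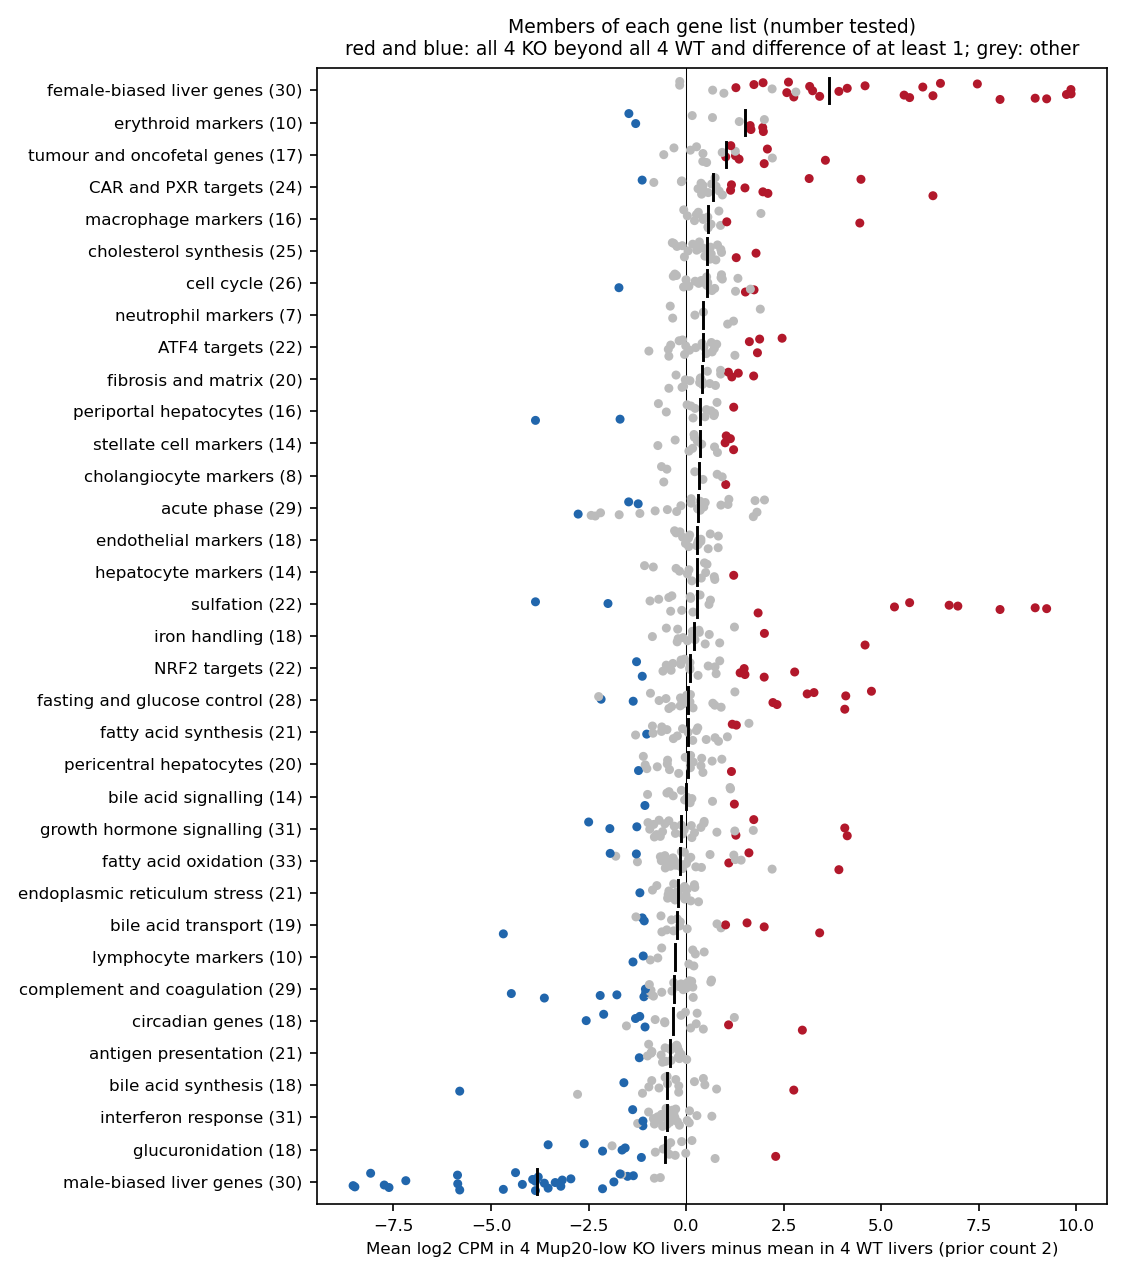
Difference of mean log2 CPM (prior count 2) between the 4 Mup20-low KO livers and the 4 WT livers for each measured member of 35 gene lists with at least 5 members, ordered by median. Red and blue points are apart and higher or lower in Mup20-low KO livers, grey points are not apart, and black bars are list medians. The female-biased list (median 3.67) and the male-biased list (median -3.82) lie at the ends, and the other medians lie between -0.54 and 1.5.

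Genes of the fasted state and of glucose control were split. Of 28 measured, 7 were apart and higher and 2 lower, and the list's median of 0.06 turned to -0.03 when CPM were taken without TMM factors. Lepr, the leptin receptor, was at 1032, 170, 463 and 78.5 CPM in Mup20-low KO livers and 9.13 and 7.98 CPM in the high pair, against 7.93, 6.92, 9.72 and 21.7 CPM in WT livers. Pdk4, which limits pyruvate oxidation, ranged from 18.1 to 268 CPM against 3.24 to 8.3 CPM, and Ppargc1a, a coactivator of gluconeogenesis and fat oxidation, from 68.3 to 213 CPM against 21.6 to 33.1 CPM. Ppp1r3g, a glycogen-targeting subunit of protein phosphatase 1, was at 274, 17.3, 28.5 and 23.7 CPM against 1.09 to 5.96 CPM, with library 1 far above the others. Irs2, an insulin receptor substrate, and Cdkn1a, the cell cycle inhibitor p21, were also higher, by 2.23 and 3.28. One of the lower genes was Pfkfb3, a regulator of glycolysis, at 11, 10.1, 6.22 and 8.6 CPM in Mup20-low KO livers and 17.2 and 26.9 CPM in the high pair, against 29.7 to 48.3 CPM in WT livers. With any 1 library left out, 7 were higher throughout, and the lower count ranged from 1 (without KO library 1) to 4 (without KO library 2 or 5).

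Lipid genes were apart in small numbers, where 3.36% of all genes were higher and 3.24% lower. In fatty acid oxidation, 3 of 33 were higher and 2 lower. Cyp4a14, a PPAR-alpha target that also stands in the female-biased list, averaged 1040 ± 519 CPM in Mup20-low KO livers against 84.8 ± 70 CPM in WT livers. Fabp1, the liver fatty acid binding protein and also a PPAR-alpha target, was lower, at 252, 390, 1139 and 266 CPM against 1376 to 1740 CPM. Cd36, a fatty acid translocase that is female-biased, ranged from 105 to 213 CPM against 40.8 to 51.7 CPM. In cholesterol synthesis, 2 of 25 were higher, Lss and Pmvk. The list's median in single libraries was 0.60, 0.65 and 0.69 in KO libraries 1, 2 and 6 and -0.36 in KO library 5, and without library 5 the count was 8 of 25. In fatty acid synthesis, Acss2, which activates acetate, averaged 358 ± 114 CPM against 152 ± 17.4 CPM, and Pnpla3 was the other higher gene.

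Targets of NRF2, the regulator of the antioxidant response, were higher at 5 of 22 genes and lower at 2. Hmox1, haem oxygenase 1, was at 139, 169, 179 and 103 CPM in Mup20-low KO livers and 15.8 and 15 CPM in the high pair, against 23.5, 16.3, 17.9 and 27.7 CPM in WT livers. Nqo1, a quinone reductase, ranged from 7.43 to 12.2 CPM against 3.54 to 3.98 CPM, and Srxn1, sulfiredoxin, from 27.5 to 204 CPM against 15.6 to 22.3 CPM. Gsta2 and Abcc4 were also higher, and Aox1 and Ephx1 lower. Of 22 ATF4 targets, 4 were higher: Vldlr, a lipoprotein receptor (13.2 ± 3.94 CPM against 2.44 ± 1.29 CPM), Gdf15, a stress hormone (2.51 ± 0.978 CPM against 0.618 ± 0.354 CPM), Cth and Atf3.

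**Figure D3:**
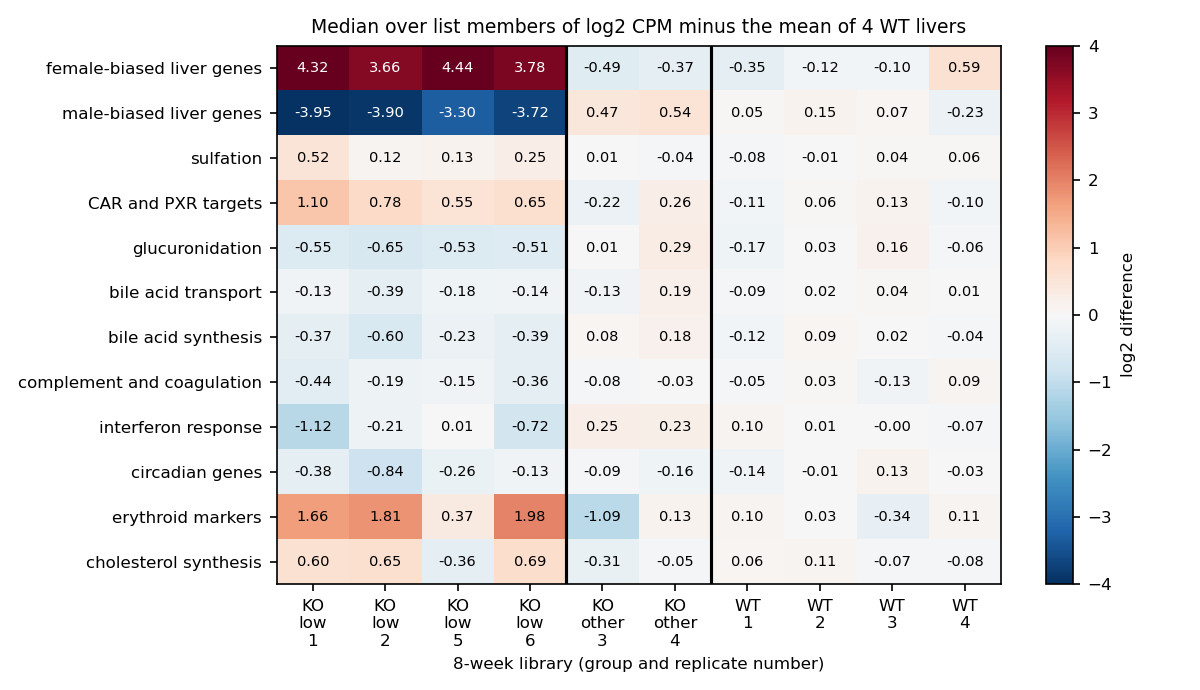
Median over the members of 12 gene lists of log2 CPM (prior count 2) minus the mean of the 4 WT livers, in each Mup20-low KO liver, each liver of the Mup20-high KO pair and each WT liver at 8 weeks. Numbers in cells are the medians and the colour scale stops at 4 and -4. The 4 Mup20-low livers share the male-biased (-3.95 to -3.30) and female-biased (3.66 to 4.44) values, while the cholesterol, interferon and erythroid rows vary among them.

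Arntl and Dbp, a pair of clock genes, differed widely among the 4 livers. Of 18 clock genes measured, 2 were apart and higher and 5 lower, but with KO libraries 5 and 6 alone 1 was higher and 1 lower. Arntl, which encodes the clock activator BMAL1, was at 45, 43.5, 4.75 and 3.85 CPM in Mup20-low KO livers and 2.35 and 1.76 CPM in the high pair, against 1.46, 1.37, 1.47 and 2.53 CPM in WT livers. Dbp, an output gene of the clock, was at 4.32, 1.14, 32.3 and 26.7 CPM against 49.2, 47.6, 64.1 and 38.2 CPM. Libraries 1 and 2 thus had high Arntl and low Dbp, and libraries 5 and 6 lay nearer to WT. With KO libraries 5 and 6 alone, 27 of 30 male-biased genes were lower and 25 of 30 female-biased genes higher. The time of day at which livers were taken is not given in the sources used here.

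Some complement genes were lower. Of 29 genes of complement and coagulation, 7 were apart and lower, none higher and 22 not apart, with 4 lower without KO library 1 and a median difference of -0.32. C9, a pore-forming component, was at 22.3, 45.1, 181 and 21 CPM in Mup20-low KO livers and 1167 and 1034 CPM in the high pair, against 1029, 1061, 809 and 1088 CPM in WT livers. C6, which is also male-biased, was at 28.5, 30.1, 33.1 and 33.5 CPM against 444, 461, 323 and 345 CPM, and C8a at 211, 327, 432 and 173 CPM against 1061 to 1379 CPM. C8b ranged from 105 to 201 CPM against 433 to 470 CPM. The 4 just named encode parts of the membrane attack complex, and the other lower genes were C4b, Mbl1 and C1ra. In the acute-phase list 3 of 29 were lower, led by Saa4 at 34.8, 132, 226 and 169 CPM against 910, 861, 507 and 956 CPM, and 9 were lower without WT library 3. None of that list was higher, but 5 were without KO library 6 or without WT library 4. Its median difference of 0.30 turned to -0.02 without KO library 2 or without WT library 3. The interferon list had 3 of 31 lower, 1 without KO library 1 or 6 and 6 without KO library 5, with Irf7, the interferon-inducible transcription factor, at 10.7, 12.4, 14 and 8.26 CPM against 24, 21.5, 25.9 and 25.3 CPM.

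Markers of the liver's cell types gave the following values. The 14 hepatocyte markers summed to 170400 to 221300 CPM in Mup20-low KO livers and 94110 to 105700 CPM in the high pair, against 99680 to 111500 CPM in WT livers, and 1 was apart, Alb, the albumin gene, at 114319 to 146959 CPM against 51555 to 62690 CPM in WT livers. Of 16 macrophage markers 2 were higher, Cd5l and Marco, a scavenger receptor at 109 to 226 CPM against 4.76 to 14.5 CPM, and the list summed to 869 to 1208 CPM against 473 to 678 CPM. Stellate cell markers summed to 938 to 1307 CPM against 552 to 729 CPM, with 4 of 14 higher (Pdgfra, Ecm1, Hgf and Dcn), 1 without KO library 1. None of 18 endothelial and 7 neutrophil markers was apart, and 2 of 10 lymphocyte markers were lower. Erythroid markers were mixed: the 4 globin genes Hba-a1, Hba-a2, Hbb-bs and Hbb-bt were higher, Hbb-bs at 281, 375, 113 and 301 CPM against 69.4, 62.6, 45.8 and 77.3 CPM, whereas Alas2 and Car1 were lower. The globin copies share reads. In bulk RNA, a change in the number of cells of a type and a change in RNA per cell cannot be told apart.

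Of 17 tumour and oncofetal genes, 7 were higher and none lower. H19, an imprinted long non-coding RNA of fetal liver, was at 5.43, 9.89, 1.73 and 5.36 CPM in Mup20-low KO livers and 0.165 and 0.126 CPM in the high pair, against 0.408, 0.196, 0.245 and 0.39 CPM in WT livers. Scd2, a desaturase, averaged 34.6 ± 15.7 CPM against 7.35 ± 1.75 CPM. Afp was not among the 7, which were H19, Scd2, Abcc4, Igf2, Cd24a, Robo1 and Sox9. In the cell cycle list Mki67 and Ccna2 were higher and Ccne1 lower among 26 genes, and 9 were higher without KO library 6. Over all genes 3.36% were higher and 3.24% lower, so the main counts of this list are near that background. In the fibrosis list 4 of 20 were higher, at low levels for Lox (1.92 ± 0.582 CPM against 0.485 ± 0.0655 CPM) and Acta2 (4.97 ± 2.04 CPM against 1.81 ± 0.441 CPM).

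**Figure D4:**
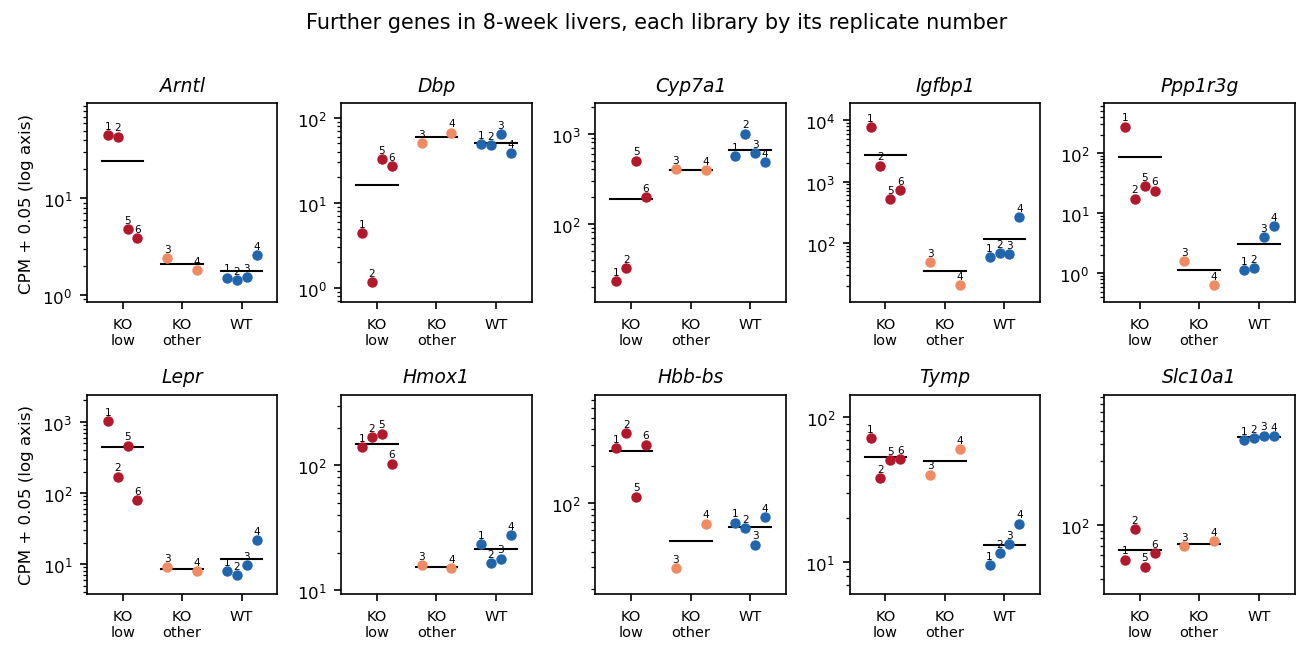
CPM plus 0.05 on a log axis for 10 genes in the 4 Mup20-low KO livers (KO low), the Mup20-high KO pair (KO other) and the 4 WT livers at 8 weeks, with replicate numbers beside the points and bars at group means. Arntl, Dbp and Cyp7a1 divide the Mup20-low livers into libraries 1 and 2 and libraries 5 and 6, while Tymp lies above and Slc10a1 below WT in all 6 KO livers.

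In 40 of the higher and 48 of the lower genes all 6 KO livers lay beyond WT, and with the mean over all 6 also differing by at least 1, 23 genes were higher and 36 lower. The Mup20-high KO pair lay beyond WT on the opposite side at more genes, 62 of the higher and 99 of the lower. No share over all measured genes is given for either side. Tymp, thymidine phosphorylase (chromosome 15, 89371931 to 89377039), was at 71.5, 37.9, 50.7 and 51.1 CPM in Mup20-low KO livers and 40.1 and 60.1 CPM in the high pair, against 9.46, 11.5, 13.3 and 18.4 CPM in WT livers. Sparcl1, a matricellular protein gene, was at 20.7, 18.5, 17.8 and 16.5 CPM, with 4.98 and 6.46 CPM in the high pair, against 4.44 to 4.66 CPM in WT livers. Bcl6b, an endothelial-enriched repressor, and Tubb2a, a tubulin gene, averaged 9.91 ± 6.81 CPM and 21.4 ± 15.8 CPM in Mup20-low KO livers, against 1.58 ± 0.56 CPM and 4 ± 0.551 CPM in WT livers. KO library 1 was the highest for both, at 20 and 40.2 CPM. The high pair lay only just beyond WT, with Bcl6b at 1.97 and 2.56 CPM against at most 1.96 CPM in WT livers. Tubb2a was at 5.02 and 6.38 CPM in the pair against at most 4.64 CPM. Lower in all 6 were Lipg, endothelial lipase (8.22 ± 8.15 CPM in Mup20-low KO livers against 43.5 ± 12.8 CPM in WT livers), Kcnk5, a potassium channel gene (14.5 ± 8.21 CPM against 72.3 ± 21 CPM), and Slc46a3 (26.9 ± 10.8 CPM against 76.2 ± 8.99 CPM).

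The comparison that the labels define, all 6 KO against 4 WT livers at 8 weeks, was tested with edgeR's quasi-likelihood F-test. It called 1 of 14488 genes higher (0.0069%) and 2 lower (0.0138%), 0.0207% in all, at a Benjamini-Hochberg adjusted p under 0.05, with 1516 genes at an unadjusted p under 0.05 and 109 called by DESeq2. The higher gene was Tymp (log2 fold change 1.99, SE 0.225, edgeR adjusted p = 0.0156), called in no fit that left out WT library 1 or 3 or KO library 5 or 6. Nor was Tymp called with the replicate number as a block or with no low-count filter. At the other ages it was not called, with log2 fold changes of 0.13 at 4 weeks (SE 0.436, edgeR adjusted p = 0.871) and 0.78 at 20 months (SE 0.262, edgeR adjusted p = 0.821). The lower ones, named after their values were seen, were the pseudogene Gm5859 (log2 fold change -3.28, SE 0.417, edgeR adjusted p = 0.0345) and the predicted transcript Gm17167 (-3.17, SE 0.335, adjusted p = 0.0119), both on chromosome 4. None of the male-biased, female-biased or sulfation genes was called in that test, where the Mup20-high KO pair stands among the KO livers.

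The 4-week and 20-month livers were not used to pick the Mup20-low livers and give tests of the same genes. At 4 weeks all 3 KO livers had low Mup20, with 20.3, 10.2 and 9.1 CPM against 634, 942 and 1052 CPM in WT livers, and the male-biased list's median was -2.21, -2.43 and -2.13 in KO livers and -0.22, 0.12 and 0.15 in WT livers. Of the genes apart at 8 weeks and measured at 4 weeks, 95 of 331 higher genes were also called higher (28.7%) and 138 of 290 lower genes lower (47.6%), where edgeR called 5.18% of all 11121 genes higher and 5.4% lower. Of those called in the other direction there were 4 among the higher genes and 0 among the lower. Seen from 4 weeks, 95 of the 576 genes called higher (16.6% of the 571 also measured at 8 weeks) and 138 of the 601 called lower (23% of 600) were apart at 8 weeks in the same direction. The 4-week counts depended on single livers: leaving out WT library 1, 2 or 3 left 81, 37 or 29 of the higher and 115, 68 or 54 of the lower genes called, and leaving out KO library 3 left 53 and 85. In the fit without WT library 3, which left the fewest calls, these were 8.12% and 18% of the genes tested, where 0.57% and 0.851% of all genes were called.

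By list, edgeR called 18 of 26 male-biased genes lower at 4 weeks (14 to 21 with single livers left out), and 14 of 26 female-biased genes higher with 1 lower (4 to 16 higher). Over all genes 5.18% were called higher and 5.4% lower. Among the male-biased genes, Elovl3 had 0.171 ± 0.069 CPM in Mup20-low KO livers at 8 weeks and fell by 8.23 on the log2 scale in KO livers at 4 weeks (SE 0.548, edgeR adjusted p = 0.00015), Cyp7b1 fell by 3.42 (SE 0.23, adjusted p = 0.00015) and Slco1a1 by 5.27 (SE 0.427, adjusted p = 0.000359). Sult1e1 rose by 8.88 (SE 0.668, edgeR adjusted p = 0.000258). Sult2a1, at a log2 fold change of 10.8 (SE 1.88, edgeR adjusted p = 0.0125), was no longer called without WT library 2 or 3, and Cyp2b9, at 3.37 (SE 0.631, adjusted p = 0.0157), without any 1 of the WT livers. C9 fell by 3.09 (SE 0.287, edgeR adjusted p = 0.000814), Igfbp1 rose by 3.58 (SE 0.464, adjusted p = 0.00434) and Hmox1 by 2.35 (SE 0.321, adjusted p = 0.0056). These calls of Elovl3, Cyp7b1, Slco1a1, Sult1e1, C9, Igfbp1 and Hmox1 held in every alternative run.

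Other genes apart at 8 weeks were not called in that direction at 4 weeks. Prlr had a log2 fold change of -0.08 (SE 0.289, edgeR adjusted p = 0.88), Nr0b2 -0.54 (SE 0.543, adjusted p = 0.547) and Cyp2a4 -2.18 (SE 0.575, adjusted p = 0.0452), the last called lower in KO livers at 4 weeks, though not without WT library 2 or 3 or KO library 2 or 3. Cyp7a1, Cyp8b1, Papss2, Abcb11 and Igf1 were not called at 4 weeks either, with log2 fold changes of 0.40, -0.17, 0.37, -0.80 and -0.54. Of the interferon genes, edgeR called 18 of 27 lower at 4 weeks, where 5.4% of all genes were called lower. With the replicate number as a block it called 9 of 27, where 2.45% of all genes were called lower. Single livers left out gave 4 to 19, the 4 without WT library 3, where 0.851% of all genes were called lower. At 8 weeks 3 of 31 were apart and lower under the other rule.

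**Figure D5:**
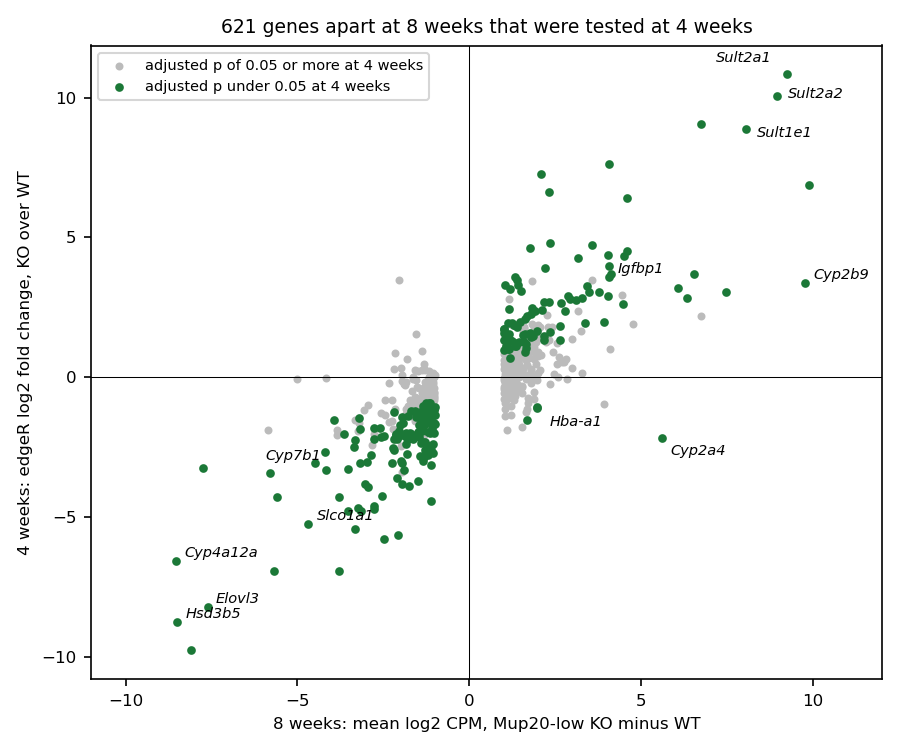
Each of the 621 genes that were apart at 8 weeks and measured at 4 weeks, by its difference of mean log2 CPM between 4 Mup20-low KO and 4 WT livers at 8 weeks (x axis) and its edgeR log2 fold change, 3 KO over 3 WT livers, at 4 weeks (y axis). Green points had an adjusted p under 0.05 at 4 weeks and grey points did not. Of the green points, 233 lie at the lower left and upper right, and 4 at the lower right, among them Cyp2a4 and Hba-a1.

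At 20 months edgeR called none of 13934 genes, with 771 at an unadjusted p under 0.05 and 48 called by DESeq2, and 7 higher and 64 lower in the edgeR fit without WT library 3. Mup20 was at 1135, 1244 and 823 CPM in KO livers against 273, 2033 and 1066 CPM in WT livers. The male-biased list's median relative to the WT mean was 0.14, 0.29 and -0.06 in KO livers and -0.83, 0.70 and 0.17 in WT livers, and the female-biased list's 0.21, 0.18 and 0.66 in KO livers and 0.11, -0.69 and 0.53 in WT livers. The groups overlapped for both lists. The 415 genes apart and higher at 8 weeks that were measured at 20 months had a median log2 fold change of -0.26 there, and the 416 lower genes one of 0.17.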

How the data were processed

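The submitters' processing notes name HISAT2 2.0.4, HTSeq 0.6.1p1 and the build GRCm38, and the deposited values are raw counts per gene, 1 table per library. The annotation release, strand setting and read filter are not given in the sources used here, so overlapping, antisense and near-identical genes may share or lose reads. File names mark the 4-week libraries as paired-end and the others as single-end. Reads outside genes made up 13.91% to 17.78% of counts at 8 weeks and reads ambiguous between genes a further 5.28% to 7.3%. Both were left out. Of 47729 genes, 47224 took symbols from GENCODE M21. Depth was 5496425 to 6956124 counts at 4 weeks and 18032355 to 26789350 at 20 months, and intervals and limits cover counting error only. No 2 libraries agreed within sampling noise (lowest chi-square per degree of freedom 8.34).

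The members, gene lists and tests were chosen with earlier results of these data known. KO livers were picked by unscaled Mup20 CPM. Other CPM used TMM factors, and genes were those kept by filterByExpr, without Mup genes and Slc10a1. Groups given by the labels were tested with edgeR 4.0.16 (quasi-likelihood F-test, TMM, Benjamini-Hochberg adjusted p under 0.05) in R 4.3.3, within each age, after a test on simulated data. The alternatives were RLE scaling, CPM without TMM, no filter on low counts, a prior count of 0.5, DESeq2 1.42.0, the replicate number as a block, single libraries left out, all 6 KO livers, KO libraries 5 and 6 alone and a difference of at least 2, the last 2 chosen after seeing the data.

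Named genes were a core panel, the 10 largest differences in each direction, the 6 largest in each direction with the Mup20-high pair inside the WT range and the 6 with it beyond WT on the same side, and the 2 largest from each list with 3 or more genes apart, where ranked genes needed mean log2 CPM no lower than 1 and no predicted-gene symbol. Other list members are named where they make up a list's count. Some members are not reported here by name.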

Additional observations from a re-analysis of the deposited data

Results flagged for a closer look

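Of 178 groups of 4 WT or 6 KO livers, 14 held 1 liver far from the rest of its group on unlogged CPM, 7 of them in KO livers. The KO groups pooled the Mup20-low livers with the Mup20-high pair. Many of the genes were named because Mup20-low KO livers differed from WT. The usual chance rate of about 1 in 20 groups takes each group as uniform, so it is no measure for these flags. KO library 1 stood apart for Igfbp1 (7818 CPM), Ppp1r3g (273.7 CPM) and Bcl6b (19.97 CPM). KO library 3, of the Mup20-high pair, stood apart for Serpina4-ps1 (349.9 CPM), a male-biased serpin pseudogene, for Scara5 (76.73 CPM), a ferritin receptor, and for Saa4 (803.5 CPM). At Scara5 and Saa4 this library lay inside the range of the WT livers. KO library 4 stood apart for Clec2h (27.33 CPM). WT library 4 stood apart for Igfbp1 (263.6 CPM), Arntl (2.534 CPM), Cyp2f2 (620.4 CPM) and Sult2a2 (0.03898 CPM, from 1 read). WT library 1 stood apart for Hao2 (2.246 CPM) and Scd2 (9.937 CPM), and WT library 3 for Csad (222.4 CPM), the cysteine sulfinate decarboxylase of taurine synthesis.

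At 4 genes every Mup20-low KO liver at 8 weeks lay above WT while every KO liver at 4 weeks lay below the WT livers of its age, and the difference between the ages was not tested. The 8-week differences of mean log2 CPM were 5.589 for Cyp2a4, 1.742 for Ccna2, 1.981 for Hba-a1 and 1.965 for Hbb-bs. The globin calls at 4 weeks (log2 fold changes of -1.09 for Hba-a1 and -1.07 for Hbb-bs, edgeR adjusted p = 0.0433 and 0.025) did not hold without any 1 of the WT livers.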

How the results depend on the processing

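Among 8-week livers, 487 genes were higher and 469 lower, and leaving out single libraries gave 401 to 691 and 384 to 698. A difference of at least 2 gave 112 and 145, and all 6 KO livers 23 and 36. CPM without TMM gave 399 and 554, shared 851 of the 956 genes and moved the median over all genes to -0.11. The test of all 6 KO against WT livers at 8 weeks (1 higher, 2 lower) gave 75 and 34 by DESeq2, 0 and 0 with the replicate number as a block, 1 lower with no low-count filter, and 0 to 1 and 0 to 3 with single livers left out. At 4 weeks the 576 higher and 601 lower calls became 1033 and 989 with no filter, 242 and 272 with the block, and 65 to 1046 and 97 to 942 with single livers left out. At 20 months, where edgeR called 0 genes, DESeq2 called 7 higher and 41 lower, and leaving out single livers gave 0 to 7 and 0 to 64. Replicate numbers did not pair the samples: correlations of same-numbered livers' deviations ran from -0.33 to 0.0745 at 8 weeks, from -0.0671 to 0.0154 at 4 weeks and from 0.0298 to 0.456 at 20 months. For single genes at 4 weeks, 425 values kept direction and side of the threshold, 68 lost the call, 9 gained it and 8 reversed, none of them called: Cyp8b1 with the block (0.1246) and without WT library 1 (0.8069) or KO library 1 (0.1041), Prlr without WT library 1 (0.1389) or KO library 1 (0.1414), Bcl6 without WT library 1 (0.0592), and Fgf21 with the block (-0.1012) or without KO library 2 (-1.0494). With single livers left out these ran from -0.518 to 0.8069 for Cyp8b1, -0.2801 to 0.1414 for Prlr, -1.597 to 0.0592 for Bcl6 and -1.0494 to 0.9001 for Fgf21. Causes were not tested. Depth at 4 weeks limits low genes, with 11121 genes tested there against 14488 at 8 weeks.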

Other observations

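Some genes outside the lists also differed between Mup20-low KO and WT livers. Cyp2a22, a cytochrome P450 of the Cyp2a cluster, was at 105, 64.8, 40.3 and 151 CPM in Mup20-low KO livers and 0.617 and 0.462 CPM in the Mup20-high KO pair, against 0.579, 0.442, 1.23 and 0.507 CPM in WT livers. Csad was at 8.54, 12.8, 10.9 and 22.8 CPM, with 119 and 129 CPM in the high pair, against 102, 104, 222 and 118 CPM in WT livers, so the high pair lay inside the WT range. Scara5 was at 8.38, 9.22, 0.302 and 1.02 CPM against 53.5 to 98.2 CPM in WT livers, with 76.7 and 22.1 CPM in the high pair, and had a log2 fold change of -0.06 at 4 weeks (SE 1.08, edgeR adjusted p = 0.975). Pkdrej, Fam25c, Dclk3 and Dpy19l3 were also lower in the 4 livers with the high pair inside the WT range, by differences of -3.26, -2.87, -2.76 and -2.38. Fam25c and Dclk3 were also called lower in KO livers at 4 weeks (log2 fold changes of -2.79 and -2.21, SE 0.521 and 0.456, edgeR adjusted p = 0.0155 and 0.022), but not without WT library 2 or 3 or KO library 3. Unc13b and the pseudogene Marcksl1-ps4 were below WT in all 6 KO livers, with differences of -1.52 and -1.97 in the Mup20-low livers.

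Of the genes of the periportal list, Cyp2f2 was at 181, 139, 432 and 268 CPM in Mup20-low KO livers against 790, 818, 794 and 620 CPM in WT livers, and fell by 2.19 on the log2 scale at 4 weeks (SE 0.219, edgeR adjusted p = 0.00126). Iigp1, an interferon-inducible GTPase, was at 54.8, 242, 255 and 123 CPM against 342 to 385 CPM, and A2m at 0.0432 to 0.421 CPM against 0.638 to 0.885 CPM. The core gene Fgf21, a fasting hormone, was at 0.0527 to 1.51 CPM against 0.17 to 0.589 CPM and overlapped.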
